A study of Sus scrofa with 9 samples.

Results

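The genes described here encode the endothelin, angiotensin, bradykinin and serotonin receptors through which blood-borne and local signals reach valve cells, together with endothelin-1 itself and the enzyme that matures it. They were chosen by symbol as the rows AGTR1, EDN1, EDNRA, EDNRB, ECE1, HTR2A, HTR2B, BDKRB1 and BDKRB2, which is 9 of the 19535 gene rows in the deposited counts. All 9 rows were found, and all 9 had enough counts for testing, as did 13662 genes in all. The cells were porcine valvular interstitial cells (PVICs), the fibroblast-like cells inside the leaflet, of wild type genotype, from the aortic valves of pigs aged 4 to 5 months. The NC group was kept in DMEM, a standard growth medium, as the control. The OIM group was kept in an osteogenic medium that holds insulin, ascorbic acid at 50 µg/mL and sodium dihydrogen phosphate at 2 mmol/L. The BFGF group was kept in the same OIM with 50 ng/mL basic fibroblast growth factor (bFGF) added, so the osteogenic medium is common to both treated groups. RNA was sequenced in 3 libraries per group. The labels give 3 days of treatment for every group, whereas the methods of the study give a shorter time.

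Endothelin-1 is made as a precursor that is cut first by furin-type proteases and then by endothelin-converting enzyme, and it acts through the ETA receptor, which contracts smooth muscle, and the ETB receptor, which also clears the peptide from the circulation. Angiotensin II acts mainly through the AT1 receptor, and bradykinin acts through the B2 receptor, which is usually constitutive, and the B1 receptor, which is usually induced by injury and prefers kinins that have lost their last arginine. Serotonin acts through many receptors, among which 5-HT2B is known in heart valves because drugs that activate it can cause valve disease. All of the receptors among the 9 genes can couple to Gq, a G protein that activates phospholipase C and releases calcium from internal stores.

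Counts on genes ranged from 46773376 to 67371523 per library, and the BFGF libraries had the lowest totals. Levels are given as CPM, the counts of a gene relative to the total of its library after scaling by the trimmed mean of M-values (TMM). A gene was called higher or lower when it met both of these limits. Its p from the quasi-likelihood test of edgeR, adjusted by Benjamini-Hochberg over all genes tested, had to be 0.05 or less, and its log2 fold change had to reach 0.5 in either direction. The spread between replicates exceeded counting error in each pair (mean chi-square of 4.62 to 18.8 per gene), and all 9 libraries were used as separate. OIM replicate 2 and BFGF replicate 3 each lay farthest from their group's mean for 6 of the 9 genes. No source used here says whether the libraries of a group came from separate animals or cultures, so the p-values measure the spread between these libraries, which may be technical. In bulk RNA, fewer cells of a type and less RNA per cell cannot be told apart.

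The cells carried the markers of their label. The fibroblast and interstitial list was abundant in every group, led by COL1A1, a chain of type I collagen, at a mean of 27002 CPM in NC, 25047 CPM in OIM and 9886 CPM in BFGF. Its lowest gene was PDGFRB, a receptor of platelet-derived growth factor, in NC (317 CPM) and OIM (328 CPM) and DCN, which encodes decorin, in BFGF (214 CPM). The summed level of the 10 genes was 65381 to 70794 CPM in NC, 62047 to 64868 CPM in OIM and 39105 to 39471 CPM in BFGF. Of these genes, 2 were called higher and 4 lower in each comparison of BFGF, and 0 in OIM against NC. Those called higher were POSTN, which encodes periostin, and VIM, which encodes vimentin. POSTN had means of 600 CPM in OIM and 1645 CPM in BFGF, and VIM 5695 and 9008 CPM. Of all genes tested, 36.2% were called in BFGF against OIM and 39% in BFGF against NC. The markers of other cell types are given beside the results they move with.

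All 9 genes were expressed by a limit of 1 CPM in the mean of at least 1 group, and none was at the floor of 3 counts in any group. Levels of different genes were compared per kilobase of annotated exon. In NC the order was led by BDKRB1, the B1 receptor, at 57.0 ± 0.76 CPM per kb (SD, n = 3), a level that exceeded that of 93.3% of the 13643 genes tested with a length. ECE1, the converting enzyme, followed at 21.1 ± 0.73 CPM per kb and HTR2A, the 5-HT2A receptor, at 10.1 ± 0.38 CPM per kb. The middle of the order held EDNRA, the ETA receptor, at 5.35 ± 0.31 CPM per kb, AGTR1, the AT1 receptor, at 4.91 ± 0.086 CPM per kb, EDN1, the endothelin-1 precursor, at 4.70 ± 0.049 CPM per kb and BDKRB2, the B2 receptor, at 3.23 ± 0.20 CPM per kb. EDNRB, the ETB receptor, at 1.68 ± 0.079 CPM per kb and HTR2B, the 5-HT2B receptor, at 1.44 ± 0.20 CPM per kb were lowest, and of all neighbours in this order only these last genes had overlapping ranges. The annotated BDKRB1 exons hold coding sequence only, 1059 bases, so reads from untranslated ends, where counted, would raise its level per kb. In CPM, which takes no account of length, ECE1 was above BDKRB1 in NC (98.6 and 60.3), OIM (92.2 and 76.4) and BFGF (76.3 and 55.0).

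**Figure D1:**
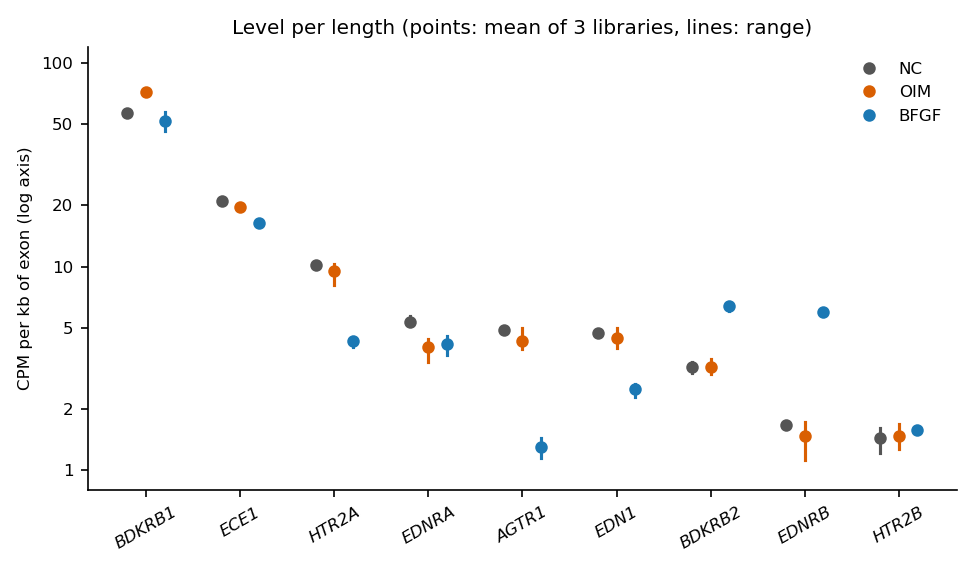
Mean level of the 9 genes in CPM per kb of exon (log axis) in NC, OIM and BFGF, with lines from the lowest to the highest of the 3 libraries. BDKRB1 and ECE1 lead in every group, while EDNRB and BDKRB2 stand above and AGTR1, HTR2A and EDN1 below their NC and OIM levels in BFGF.

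In OIM the first 3 places were the same, with BDKRB1 at 72.2 ± 0.58, ECE1 at 19.8 ± 0.38 and HTR2A at 9.50 ± 1.16 CPM per kb. EDN1, AGTR1, EDNRA and BDKRB2 followed, and each overlapped with its neighbour in that order, as did HTR2B and EDNRB at the bottom. In BFGF the order below ECE1 was different. BDKRB2 at 6.44 ± 0.32 and EDNRB at 5.96 ± 0.23 CPM per kb came next with overlapping ranges, HTR2A at 4.33 ± 0.27 and EDNRA at 4.17 ± 0.45 CPM per kb followed and also overlapped, and AGTR1 was last at 1.31 ± 0.15 CPM per kb. AGTR1 thus exceeded 47.1% of genes in NC and 26.8% in BFGF, whereas EDNRB exceeded 29.3% in NC and 50.2% in BFGF.

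The 9 genes lie on 6 chromosomes of the pig assembly Sscrofa11.1, the build that the circRNA coordinates in the same table match at both ends for 5248 of 6178 circRNAs (84.9%). BDKRB2 (chr7:117438622-117472005) and BDKRB1 (chr7:117491350-117492410) are neighbours on the plus strand with 19344 bases between them, and EDN1 (chr7:8752018-8758354, plus strand) is on the same chromosome. EDNRB (chr11:50073300-50102879, minus strand) and HTR2A (chr11:20555939-20620225, plus strand) share chromosome 11. AGTR1 is at chr13:88934873-88980317 on the plus strand, EDNRA at chr8:81210750-81279053, ECE1 at chr6:79408322-79465827 and HTR2B at chr15:131844578-131860417, the last 3 on the minus strand. HTR2B lies within the bounds of PSMD1, a proteasome subunit gene on the opposite strand, and HTR2A overlaps the long noncoding RNA LOC110255812 on the opposite strand, and neither shares an exon base with its partner. LOC110255812 had at most 10.7 estimated counts in any library. No circRNA in the table lay within any of the 9 genes.

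The 250 bases before the annotated start are shown for 3 of the receptor genes called different with bFGF, as the sequence from which each begins, read from RefSeq's Sscrofa11.1 on the strand of the gene. EDNRB (chr11:50102880-50103129, minus strand) and BDKRB2 (chr7:117438372-117438621, plus strand) were called higher, and AGTR1 (chr13:88934623-88934872, plus strand) was called lower. Capitals mark matches to GGGCGG, an SP1 site, on either strand.
EDNRB: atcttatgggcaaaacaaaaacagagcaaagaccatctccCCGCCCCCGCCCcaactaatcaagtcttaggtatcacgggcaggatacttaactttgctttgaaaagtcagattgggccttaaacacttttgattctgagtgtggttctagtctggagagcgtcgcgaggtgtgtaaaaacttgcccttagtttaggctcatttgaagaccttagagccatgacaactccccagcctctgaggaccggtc
BDKRB2: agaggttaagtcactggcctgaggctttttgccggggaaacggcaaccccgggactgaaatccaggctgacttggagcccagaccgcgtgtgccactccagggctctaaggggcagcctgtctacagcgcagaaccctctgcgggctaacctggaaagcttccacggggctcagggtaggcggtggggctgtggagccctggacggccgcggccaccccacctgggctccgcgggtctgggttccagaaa
AGTR1: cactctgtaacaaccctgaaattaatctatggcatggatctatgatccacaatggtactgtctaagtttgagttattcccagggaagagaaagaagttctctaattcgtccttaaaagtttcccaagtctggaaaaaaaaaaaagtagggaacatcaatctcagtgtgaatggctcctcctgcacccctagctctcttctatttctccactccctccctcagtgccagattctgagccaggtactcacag
The EDNRB window held 2 SP1 matches, at -210 to -205 and -204 to -199 from the start, while the BDKRB2 and AGTR1 windows held none. The window of HTR2A, which was called lower and is not shown, held a match at -38 to -33. An SP1 match was present in 45.9% of 19559 promoter windows of the same length. None of the 3 windows shown held any of the other motifs searched. The TATA box (TATAAA, sense strand) was present in 6.15% of all windows. The AP-1 site (TGANTCA, both strands) was present in 5.27% and the ETS core (CCGGAAG, both strands) in 7.77%. The GATA site (AGATAA, both strands) was present in 8.08% and the CArG box in 1.31%. The GC content was 65.2% for BDKRB2, 47.6% for EDNRB and 43.2% for AGTR1, so the genes called higher did not share it. The window of EDN1 held a TATA box at -248 to -243, farther from the annotated start than such a box usually lies, and its sequence is not shown.

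The comparison of OIM with NC asks what the osteogenic medium alone changed. None of the 9 genes was called, where 2.35% of all genes tested were (1.49% higher and 0.864% lower). Without the fold limit 2 of the 9 passed the adjusted p, 3 had an unadjusted p under 0.05, and DESeq2 with the same limits also called 0. The groups did not overlap for 3 of the 9 genes, where 28.8% of all genes did not, and the median log2 fold change was -0.096 against -0.0019 over all genes tested.

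BDKRB1 had 60.95, 59.4 and 60.6 CPM in the NC libraries and 76.3, 77.1 and 75.9 CPM in the OIM libraries. Every OIM library was above every NC library, at 0.34 in log2 (standard error 0.056, adjusted p = 0.000273), which is under the fold limit. EDNRA, at 22.3, 20.03 and 20.6 CPM in NC and 17.2, 13.4 and 17.1 CPM in OIM, was lower in every OIM library, at -0.40 in log2 (standard error 0.097, adjusted p = 0.00753), also under the limit. Without NC replicate 1 its adjusted p was 0.0503, at -0.36. ECE1 was at 96.6 to 102 CPM in NC and 90.3 to 93.8 CPM in OIM, without overlap but with a log2 fold change of only -0.097 (adjusted p = 0.143).

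For the other 6 genes the OIM libraries overlapped with the NC libraries, and the intervals of the differences show how large a change the data leave room for. The 95% interval of the log2 fold change was -0.42 to 0.033 for AGTR1, -0.31 to 0.15 for EDN1 and -0.43 to 0.065 for EDNRB. It was -0.24 to 0.053 for HTR2A, -0.29 to 0.38 for HTR2B and -0.18 to 0.17 for BDKRB2. All 6 intervals held 0 and lay within the fold limit of 0.5 in either direction.

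**Figure D2:**
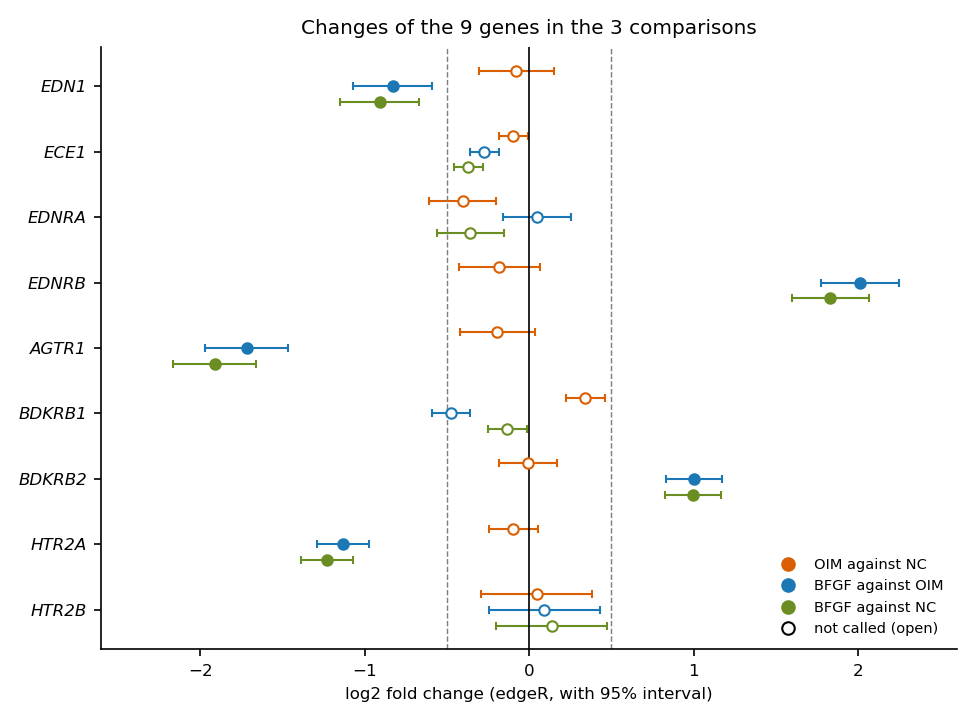
log2 fold change of each gene with its 95% interval in OIM against NC, BFGF against OIM and BFGF against NC, where filled points passed both limits of the call, open points did not, and dashed lines mark 0.5 in either direction. EDNRB and BDKRB2 lie to the right and AGTR1, HTR2A and EDN1 to the left in both comparisons of BFGF, and no point of OIM against NC is filled.

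The comparison of BFGF with OIM asks what bFGF changed in cells already in the osteogenic medium. With bFGF, the ETB receptor and the B2 receptor were significantly upregulated, and the AT1 receptor, the 5-HT2A receptor and endothelin-1 were significantly downregulated. These are 5 of 9 genes, where 36.2% of all genes tested were called (17.7% higher and 18.4% lower). The groups did not overlap for 7 of the 9, where 72.1% of all genes did not, so the share without overlap was near that of genes in general. The median log2 fold change was -0.27 over the 9 genes and -0.0029 over all genes tested.

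Against NC the same 5 genes were called, each in the same direction as against OIM, where 39% of all genes tested were called (18.9% higher and 20% lower). Again the groups did not overlap for 7 of the 9 (73.7% of all genes). The median log2 fold change was -0.36 over the 9 genes and -0.016 over all genes tested. The 2 comparisons share the BFGF libraries, so their values are given side by side and the second is no repeat of the first.

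**Figure D3:**
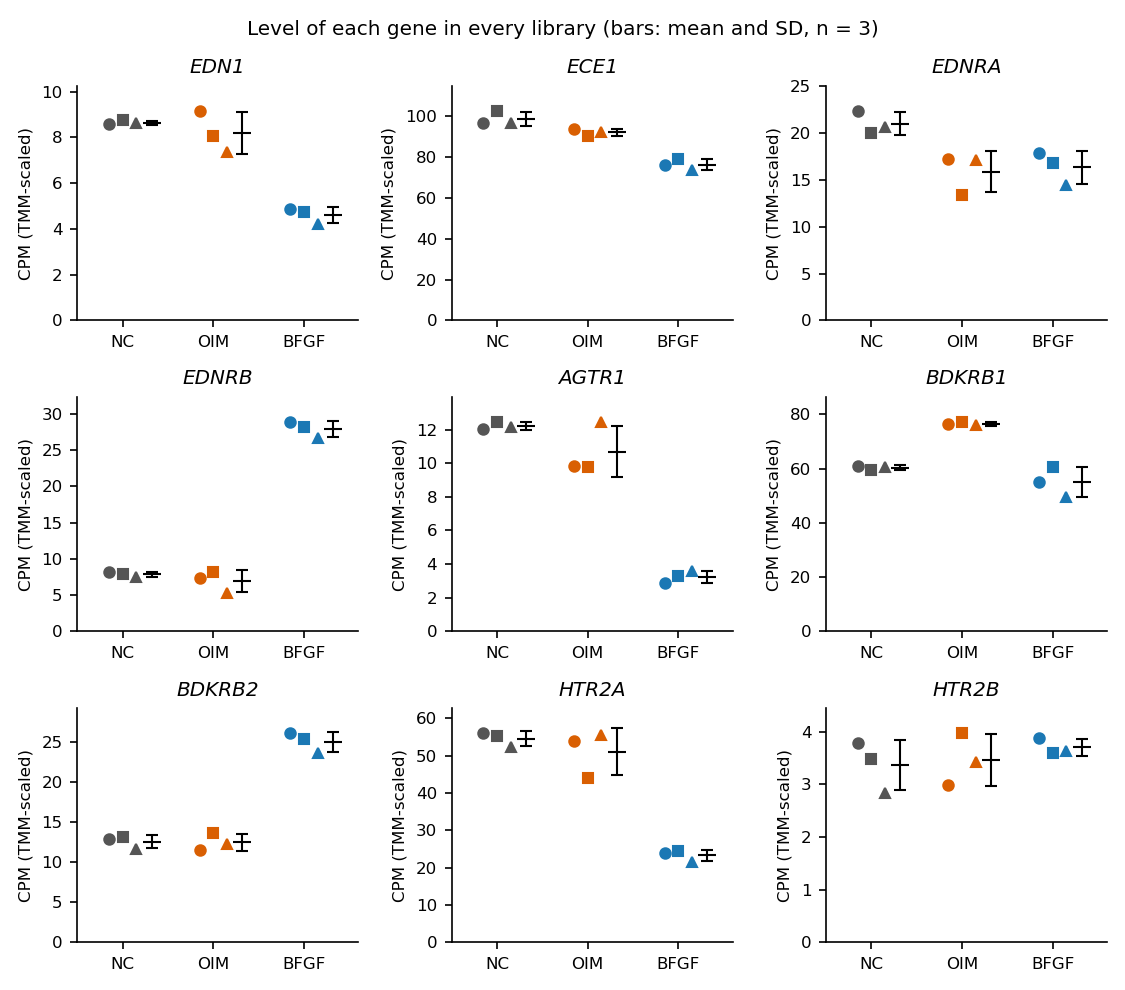
Level of each of the 9 genes in CPM, from 0, in each library of NC, OIM and BFGF, with the mean and SD of the 3 libraries. The BFGF libraries of EDNRB (26.7 to 28.8 CPM) and BDKRB2 (23.6 to 26.1 CPM) lie above, and those of AGTR1 (2.85 to 3.58 CPM), HTR2A (21.6 to 24.4 CPM) and EDN1 (4.21 to 4.87 CPM) below, every library of the other groups.

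EDNRB had the largest rise of the 9. It was at 8.20, 7.90 and 7.47 CPM in the NC libraries, at 7.36, 8.12 and 5.25 CPM in the OIM libraries and at 28.8, 28.2 and 26.7 CPM in the BFGF libraries. All BFGF libraries stood far above both other groups, which overlapped with each other. The log2 fold change was 2.01 against OIM (standard error 0.11, adjusted p = 3.62e-12), a 4.03-fold rise, and 1.83 against NC (standard error 0.11, adjusted p = 1.17e-11), a 3.55-fold rise. Among all genes tested, EDNRB ranked 750th by the size of its change against OIM.

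BDKRB2, the receptor for intact bradykinin, was at 12.9, 13.1 and 11.7 CPM in NC, at 11.5, 13.6 and 12.3 CPM in OIM and at 26.1, 25.3 and 23.6 CPM in BFGF. Its NC and OIM libraries overlapped and its BFGF libraries were all higher. It rose 2.00-fold against OIM (log2 fold change 1.001, standard error 0.081, adjusted p = 1.11e-09) and 1.99-fold against NC (0.99, standard error 0.081, adjusted p = 1.10e-09).

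AGTR1, the main receptor of angiotensin II, had the largest fall of the 9. It was at 12.02, 12.4 and 12.2 CPM in NC, at 9.85, 9.76 and 12.4 CPM in OIM and at 2.85, 3.31 and 3.58 CPM in BFGF. The 3 BFGF libraries were all below the others, and OIM replicate 3 was as high as NC. The fall was 3.29-fold against OIM (log2 fold change -1.72, standard error 0.12, adjusted p = 1.22e-10) and 3.76-fold against NC (-1.91, standard error 0.12, adjusted p = 1.88e-11).

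HTR2A was at 56.1, 55.4 and 52.3 CPM in NC, at 53.9, 43.9 and 55.5 CPM in OIM and at 23.9, 24.4 and 21.6 CPM in BFGF. All BFGF libraries were lower than OIM replicate 2, the lowest of the others. This serotonin receptor fell 2.19-fold against OIM (log2 fold change -1.13, standard error 0.075, adjusted p = 4.42e-11) and 2.34-fold against NC (-1.23, standard error 0.075, adjusted p = 1.05e-11).

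EDN1 was at 8.57, 8.74 and 8.62 CPM in NC, at 9.15, 8.06 and 7.37 CPM in OIM and at 4.87, 4.73 and 4.21 CPM in BFGF. Again no BFGF library reached either other group. The transcript of the ligand fell 1.78-fold against OIM (log2 fold change -0.83, standard error 0.11, adjusted p = 2.17e-06) and 1.88-fold against NC (-0.91, standard error 0.11, adjusted p = 5.86e-07).

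The other 4 genes were not called in either comparison of BFGF. BDKRB1 had 54.9, 60.6 and 49.4 CPM in BFGF, below every OIM library (75.9 to 77.1 CPM) and overlapping with NC (59.4 to 60.95 CPM). Its log2 fold change was -0.48 against OIM (standard error 0.056, adjusted p = 2.76e-07) and -0.13 against NC (adjusted p = 0.0408), the first just under the fold limit. Without BFGF replicate 2 it was called against OIM, at -0.55 (adjusted p = 5.03e-08), and when libraries were scaled by their totals alone the difference from NC turned to 0.090 (adjusted p = 0.168). The difference from NC was -0.21 without BFGF replicate 2 (adjusted p = 0.00214) and -0.063 without BFGF replicate 3 (adjusted p = 0.297).

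ECE1 had 76.1, 79.1 and 73.6 CPM in BFGF, below all OIM and NC libraries. The log2 fold change of this enzyme was -0.27 against OIM (standard error 0.042, adjusted p = 1.04e-05) and -0.37 against NC (standard error 0.042, adjusted p = 1.66e-07), both under the limit. Scaling by library totals alone moved all genes by a median of 0.22 and left ECE1 at -0.051 against OIM (adjusted p = 0.277). EDNRA had 17.9, 16.8 and 14.4 CPM in BFGF, which overlapped with OIM (log2 fold change 0.045, 95% interval -0.16 to 0.25) and lay below NC (-0.36, adjusted p = 0.00283, and -0.13 with adjusted p = 0.216 when scaled by library totals alone). HTR2B, the receptor known from drug-related valve disease, had the lowest level of the 9 per kb in NC. It was at 3.78, 3.48 and 2.85 CPM in NC, 2.99, 3.98 and 3.43 CPM in OIM and 3.88, 3.59 and 3.64 CPM in BFGF, so that all groups overlapped. The 95% interval of its log2 fold change was -0.24 to 0.43 against OIM and -0.20 to 0.48 against NC.

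Genes that share a ligand family moved unequally with bFGF, so the balance within each family was read as a ratio of levels per kb in each library, which does not depend on the scaling of the library. These ratios were chosen after the values had been seen. The exact two-sided permutation test with 3 libraries per group cannot give a p below 0.1, and 12 relations were computed. EDNRB over EDNRA was 0.308, 0.331 and 0.303 in NC, 0.358, 0.510 and 0.258 in OIM and 1.35, 1.41 and 1.55 in BFGF. The ETA transcript thus exceeded the ETB transcript in every NC and OIM library and the ETB transcript exceeded the ETA transcript in every BFGF library. The ratio rose 3.97-fold against OIM and 4.57-fold against NC (exact permutation p = 0.1 for each, adjusted 0.133).

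BDKRB2 over BDKRB1 was 0.0526 to 0.0603 in NC, 0.0411 to 0.0481 in OIM and 0.114 to 0.131 in BFGF. The 3 groups did not overlap, and the ratio was 2.80-fold higher in BFGF than in OIM, 2.19-fold higher than in NC and 1.28-fold lower in OIM than in NC (exact permutation p = 0.1 for each, adjusted 0.133). HTR2B over HTR2A was 0.125 to 0.155 in NC, 0.127 to 0.208 in OIM and 0.339 to 0.386 in BFGF. It was 2.35-fold higher in BFGF than in OIM (exact permutation p = 0.1, adjusted 0.133), while the HTR2B level itself overlapped. EDN1 over ECE1, the precursor over its enzyme, was 0.216 to 0.227 in NC, 0.202 to 0.247 in OIM and 0.145 to 0.162 in BFGF, 1.47-fold lower than in OIM (exact permutation p = 0.1, adjusted 0.133).

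**Figure D4:**
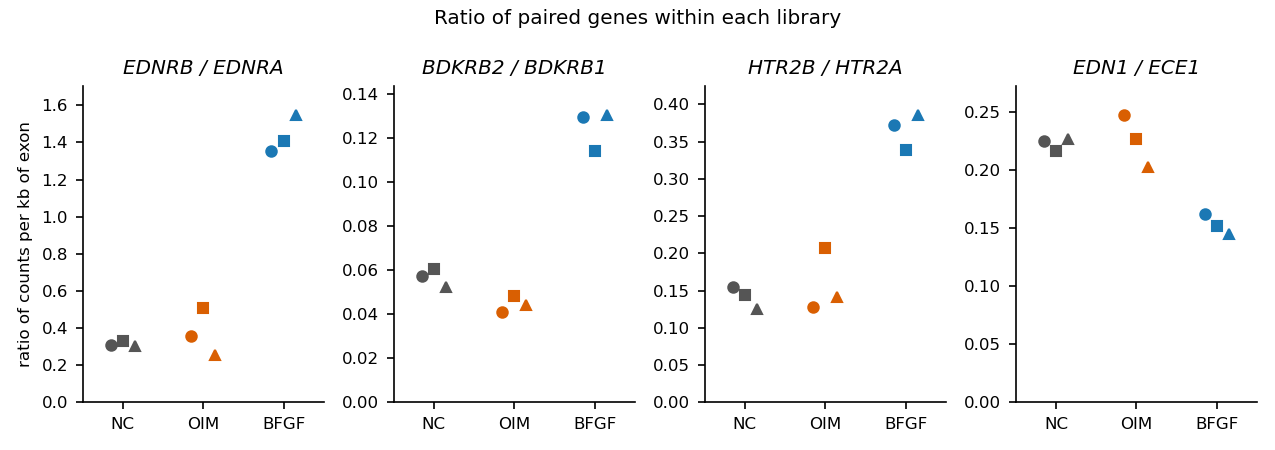
Ratio of levels per kb within a family in each library, from 0, for EDNRB over EDNRA, BDKRB2 over BDKRB1, HTR2B over HTR2A and EDN1 over ECE1. In BFGF the first 3 ratios lie above and the last below every library of the other groups, and EDNRB over EDNRA passes 1 in BFGF (1.35 to 1.55).

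The rest of these pathways was described by 172 listed genes, of which 114 could be tested. In OIM against NC, 11 of the 114 were called (6 higher and 5 lower, 9.65%). In BFGF against OIM, 64 were called (28 higher and 36 lower, 56.1%), and in BFGF against NC, 68 (28 higher and 40 lower, 59.6%). Over all genes tested the shares called were 2.35%, 36.2% and 39% in the same order, and the counts of each list below stand beside these shares. Of these calls, 4 of the 64, 5 of the 68 and 0 of the 11 were of genes that would not have met the count filter without the group where they were high. Such genes had to be high enough in that group to be tested, and their calls support nothing about their lists. The median log2 fold changes of the 114 were 0.012, -0.13 and -0.0054.

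**Figure D5:**
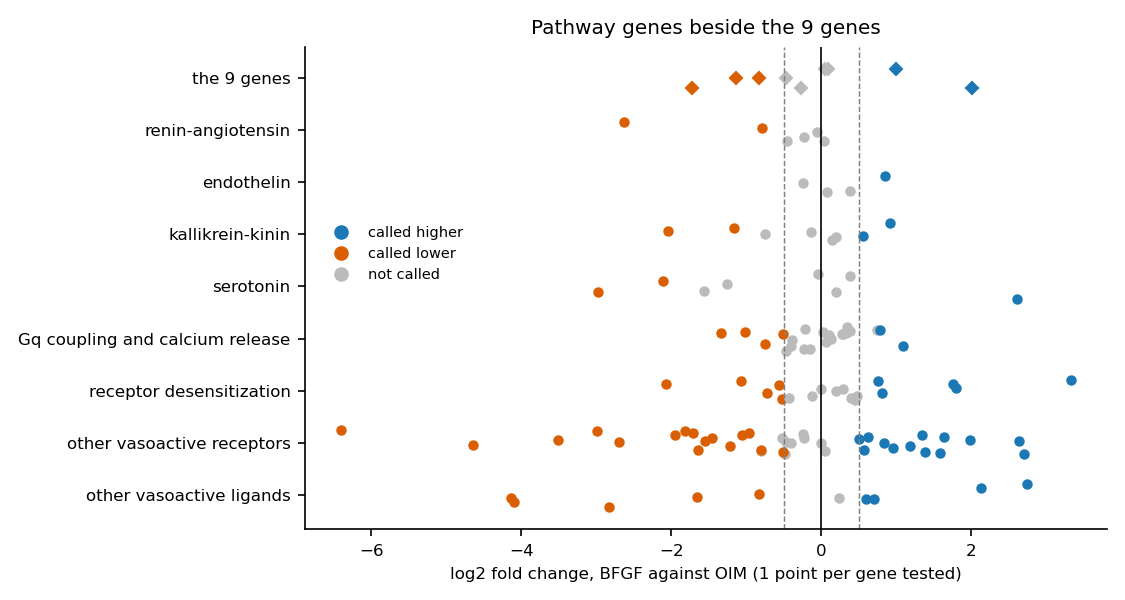
log2 fold change in BFGF against OIM for the 9 genes (diamonds) and the tested genes of each pathway list (circles), coloured by call, with dashed lines at 0.5 in either direction. Both directions are present among the vasoactive receptors, 13 higher and 16 lower, and the renin-angiotensin list holds no gene called higher.

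In the renin-angiotensin list, 2 of 6 tested genes were called in BFGF against OIM, both lower, beside AGTR1. AGT, the precursor of all angiotensins, was at 21.2 to 21.6 CPM in NC, 12.4 to 15.6 CPM in OIM and 1.52 to 2.83 CPM in BFGF, so that no groups overlapped. It fell by 0.66 on the log2 scale from NC to OIM (adjusted p = 0.000741), the only call of this list there, and by 2.63 from OIM to BFGF (standard error 0.15, adjusted p = 3.07e-12). AGTRAP, a protein that binds the AT1 receptor and promotes its internalization, fell by 0.79 from OIM to BFGF (adjusted p = 3.96e-10). ATP6AP2, the prorenin receptor, was called only against NC, where 3 of 6 were lower, at -0.56. ACE, the converting enzyme, stayed between 5.36 and 6.88 CPM in all libraries and was not called. AGTR2, the other angiotensin II receptor, had 0 counts in every library, which allows a level of up to 0.0577 CPM in the shallowest library (3 counts, counting error only).

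The endothelin list held 4 tested genes, of which FURIN, a protease that cuts the endothelin precursor among many others, was called in BFGF against OIM. It was at 139 to 151 CPM in OIM and 257 to 263 CPM in BFGF, higher by 0.84 in log2 (standard error 0.046, adjusted p = 2.07e-12). ECEL1, a relative of the converting enzyme, was low, with 5 to 16 counts in NC, 23 to 50 in OIM and 32 to 45 in BFGF, and was the only gene of the list called in OIM against NC, at 1.69 (adjusted p = 0.0287). Against NC, FURIN and ECEL1 were both higher in BFGF. EDN2 had at most 1 count and EDN3 at most 9 counts in any library, whereas EDN1 had 219 or more in each.

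In the kallikrein-kinin list, 4 of 8 tested genes were called in BFGF against OIM. XPNPEP2, an aminopeptidase that inactivates bradykinin, fell by 2.05 (adjusted p = 6.56e-06) after a fall by 0.98 from NC to OIM (adjusted p = 0.0114), the only call of the list there, from 2.80 to 3.83 CPM in NC to 0.269 to 0.522 CPM in BFGF. SERPING1, the inhibitor of plasma kallikrein and complement C1, fell by 1.16 (adjusted p = 5.17e-13). THOP1, a peptidase that can cut bradykinin, rose by 0.92 (adjusted p = 1.97e-10) and DPP4 rose by 0.55 (adjusted p = 1.13e-07). The same number, 2 higher and 2 lower, was called against NC. KNG1, the gene of the kinin precursor, and KLKB1 and KLK1, the kallikreins that release kinins, had 0 counts in every library.

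The serotonin list had 8 of 19 genes tested, and 3 were called in BFGF against OIM. HTR1D and HTR1B, receptors that couple to Gi, fell by 2.98 (standard error 0.14, adjusted p = 1.57e-13) and 2.11 (standard error 0.12, adjusted p = 3.07e-12). HTR1D was at 11.07 to 12.9 CPM in NC, 14.5 to 20.1 CPM in OIM and 2.00 to 2.65 CPM in BFGF, and its rise of 0.58 from NC to OIM (adjusted p = 0.00162) was the only call of the list there. HTR4, a Gs-coupled receptor, was called higher, from 3 to 6 counts in the OIM libraries to 19 to 38 in BFGF, and from 2 to 8 in NC, and it met the count filter only through BFGF. MAOA, which degrades serotonin, stayed between 83.9 and 97.4 CPM and was not called. TPH1, the first enzyme of serotonin synthesis outside the brain, had at most 4 counts and HTR2C, another 5-HT2 receptor, had 0. Against NC, 4 of the 8 were called (1 higher and 3 lower). Among these SLC18A1, a vesicular monoamine transporter, was low, with 6 to 29 counts in NC and 1 to 4 in BFGF. It would not have met the filter without its NC libraries, and 1 library of the other groups also passed.

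Downstream of the receptors, 6 of 22 genes of Gq coupling and calcium release were called in each comparison of BFGF (2 higher and 4 lower, 27.3%). GNAQ and GNA11, the Gq alpha subunits, were not called, at -0.23 and 0.13 against OIM. PLCB4, a phospholipase C, fell by 1.34 (adjusted p = 7.52e-10) and TRPC1, a calcium-permeable channel, fell by 1.02 (adjusted p = 2.72e-08), whereas ITPR3, a calcium release channel, rose by 1.09 (adjusted p = 6.34e-11) and RCAN1, a calcineurin regulator, rose by 0.78 (adjusted p = 4.16e-06). In OIM against NC no gene of this list was called by edgeR or by DESeq2, and 4 had an unadjusted p under 0.05.

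Of 18 genes of receptor desensitization, 10 were called in BFGF against OIM (5 higher and 5 lower) and 11 against NC (7 higher and 4 lower). RGS5 rose from 16 to 23 counts in OIM to 127 to 205 in BFGF, higher by 3.33 in log2 (standard error 0.33, adjusted p = 1.95e-08), and RGS17 rose by 1.80 (adjusted p = 8.53e-08), whereas RGS3 fell by 2.07 (adjusted p = 1.18e-16) from 128 to 148 CPM in OIM to 32.5 to 34.1 CPM in BFGF. These encode regulators of G protein signalling, which speed the switching off of G alpha subunits. RGS20 was called higher against both, with 25 to 62 counts in NC, 12 to 77 in OIM and 57 to 153 in BFGF, and its OIM and BFGF libraries overlapped. ARRB1, beta-arrestin 1, fell by 1.07 (adjusted p = 1.54e-06). From NC to OIM, RGS2, which acts mainly on Gq, rose by 0.63 (adjusted p = 2.41e-07) and RGS16 rose by 0.94 (adjusted p = 0.00674), the 2 calls of this list there.

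Of 38 other vasoactive receptors and their partners tested, 29 were called in BFGF against OIM (13 higher and 16 lower, 76.3%, beside 36.2% of all genes) and 29 against NC (10 higher and 19 lower). UTS2R, the urotensin receptor, was at 2.97 to 3.99 CPM in NC, 5.34 to 9.10 CPM in OIM and 0.115 to 0.442 CPM in BFGF, so that it rose by 1.06 with OIM (adjusted p = 0.00162) and fell by 4.64 with bFGF (standard error 0.29, adjusted p = 1.90e-11). ADRA2A, an alpha-2 adrenergic receptor, fell by 3.51 (adjusted p = 1.35e-11) and NPR3, the clearance receptor of natriuretic peptides, fell by 2.99 (adjusted p = 3.85e-16). ADRA2B had 54 to 87 counts in OIM and 0 or 1 in BFGF. Other receptors of the list stood higher in BFGF. P2RY1, a nucleotide receptor, was at 15.6 to 21.4 CPM in OIM and 111 to 127 CPM in BFGF. LPAR1, a receptor of lysophosphatidic acid, was at 75.2 to 91.0 CPM in OIM and 202 to 219 CPM in BFGF. PTGER3, a prostaglandin E2 receptor, had 0 or 1 in NC, 0 to 6 in OIM and 10 to 12 in BFGF and met the filter only through BFGF. In OIM against NC, 3 were called, which beside UTS2R were CALCRL, a receptor of adrenomedullin and CGRP, lower by -0.86 (adjusted p = 0.000339), and F2R, a thrombin receptor, higher by 0.60 (adjusted p = 0.0127).

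Among other vasoactive ligands and the enzymes that make vasoactive mediators, 9 of 10 tested genes were called in each comparison of BFGF (4 higher and 5 lower). NOS2, the inducible nitric oxide synthase, was at 26.1 to 34.6 CPM in NC, 17.1 to 20.02 CPM in OIM and 0.692 to 1.47 CPM in BFGF, a fall by 4.14 from OIM (standard error 0.17, adjusted p = 2.47e-14). APLN, apelin, fell by 4.10 (adjusted p = 7.83e-18) and ADM, adrenomedullin, fell by 2.83 (adjusted p = 4.98e-16). NPY, among those called higher, had 0 counts in NC, 0 to 4 in OIM and 9 to 12 in BFGF and met the count filter only through BFGF. From NC to OIM, CALCB fell by 0.83 (adjusted p = 0.0201) and NOS2 fell by 0.66 (adjusted p = 0.000682), and these were the 2 calls of the list there. With bFGF, CALCB was at 3.56 to 4.72 CPM, above every library of NC (1.52 to 1.72 CPM) and OIM (0.721 to 1.20 CPM).

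Several cell types other than interstitial cells express these receptors, and many genes listed as their markers moved with the groups. Bulk counts do not show which cells the reads of these markers came from, and interstitial cells may be among them. EDN1 and EDNRB are known in endothelium, whose 12 listed markers summed to 74.8 to 77.5 CPM in NC, 89.4 to 91.9 CPM in OIM and 172 to 182 CPM in BFGF, with 7 of 12 called higher in BFGF against OIM and 6 against NC. The largest share was ERG, an endothelial transcription factor, at means of 51.5, 66.8 and 137 CPM. The lowest were KDR, a VEGF receptor, in NC (2 to 6 counts), CLDN5, a tight junction gene, in OIM (1 to 8 counts) and VWF, von Willebrand factor, in BFGF (6 to 15 counts). KDR with 52 to 76 counts in BFGF and CLDN5 with 16 to 20 were among the 7 called higher against OIM, but both met the count filter only through BFGF. VWF was not called. VWF had 23 to 35 counts in NC and 6 to 38 in OIM, so its BFGF libraries lay below every NC library (log2 fold change -1.06, adjusted p = 0.112) and overlapped with OIM (-0.43, adjusted p = 0.543). No endothelial marker was at the floor in any group, and according to the labels the endothelial surface was scraped off before the cells were isolated. EDN1 was lower and EDNRB higher in BFGF, where the endothelial sum was highest, and the part of these cells in either result was not tested.

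AGTR1, EDNRA and HTR2A are known in smooth muscle. The 7 listed markers summed to 9906 to 10418 CPM in NC, 10167 to 13455 CPM in OIM and 1636 to 1819 CPM in BFGF. All 7 were called lower in both comparisons of BFGF and 2 were called higher in OIM against NC. ACTA2, smooth muscle actin, was at means of 6787, 8449 and 738 CPM, and DES, desmin, the lowest of the list, was at 0.398, 4.06 and 0.0575 CPM. No marker of this list was at the floor in any group. EDNRA, unlike AGTR1 and HTR2A, was not called in BFGF against OIM (log2 fold change 0.045), and it was at -0.40 in OIM against NC. The part of the marker changes in the levels of AGTR1, EDNRA and HTR2A was not tested.

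EDNRB is also a receptor of the melanocyte lineage, which lives in some valves. The 6 listed melanocyte markers summed to 21.2 to 22.6 CPM in NC, 17.2 to 19.0 CPM in OIM and 6.14 to 8.61 CPM in BFGF, with 2 of 4 tested called lower in each comparison of BFGF. Most of this was MITF, at 19.8, 15.5 and 6.03 CPM, and TYR, which encodes the pigment enzyme tyrosinase, had at most 1 count in any library. DCT, another pigment gene, had means of 0.249, 0.227 and 0.473 CPM in overlapping groups and was not called. EDNRB was highest in BFGF, and the part of melanocytes in that result was not tested. Schwann and neural crest markers summed to at most 0.653 CPM in any library, and 0 of the 1 gene tested was called by edgeR or DESeq2 or had an unadjusted p under 0.05. Immune markers summed to 13.2 to 16.5, 14.4 to 16.3 and 8.57 to 9.12 CPM in NC, OIM and BFGF. Nearly all of this was CD14 (means of 13.7, 13.5 and 7.68 CPM), which was the 1 of 5 called lower in each comparison of BFGF. CD3E was at 0 counts throughout. Markers of mast cells and platelets, which carry serotonin, summed to 115 to 116, 120 to 140 and 61.3 to 69.4 CPM, nearly all from KIT (means of 110, 123 and 62.5 CPM), while the mast cell gene CPA3 had 0 counts in every library and HDC at most 11, with 2 of 3 called lower in each comparison of BFGF.

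Across the 9 libraries, the genes with the most similar log2 CPM to each called gene were found by Pearson's r, as a description in which the 3 groups carry most of the variation. They were SHC3 and MRPL58 for EDNRB (r from 0.996 to 0.998) and TNPO3, DBF4 and CAMKK2 for BDKRB2 (0.996 to 0.997). For the genes that fell they were REV3L, TMEM200A and PQLC3 for AGTR1 (0.997 to 0.999), PLPP1, CAPNS1 and LOC100525572 for HTR2A (r of 0.998 for each) and FBXO21, HIVEP1 and ZDHHC9 for EDN1 (0.992 to 0.994).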

How the data were processed

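RNA from PVICs in 3 groups was sequenced in 3 libraries per group, and the labels gave each library its group and number. The deposited table holds counts made by the authors and not normalized: 19535 gene rows in whole numbers, 9888 noncoding transcripts as estimated counts and 6179 circRNAs. The table also has 19 columns without a name, which were not used. The processing notes of the submitters name Trimmomatic, HISAT2, StringTie and Sscrofa11.1, whereas the methods of the study name Cutadapt and STAR, and the labels and the methods differ also on the library kit (removal of ribosomal RNA or poly-A selection) and the sequencer. The counting program and its use of strand are not given in the sources used here, so reads of overlapping genes may be shared.

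Genes kept by filterByExpr (13662) were scaled by TMM. The quasi-likelihood model of edgeR 4.0.16 in R 4.3.3 was then fitted on all 9 libraries, with 6 residual degrees of freedom and no covariate. Standard errors are the absolute log2 change over the root of F. Depth was 46773376 to 67371523 counts per library, and the common biological coefficient of variation was 0.0602. Exon lengths and sequences came from RefSeq's Sscrofa11.1. The genes and the lists were chosen with earlier results of these data known. The text names all 9 genes and, per pathway list and comparison, up to 4 called genes of largest change with at least 10 counts in the higher group and no overlap, per marker list the highest and lowest gene, and per called gene the 3 most correlated genes. A few items that this rule selects are not reported here. Genes named beyond this rule (those at or near 0 counts, ACE, MAOA, GNAQ, GNA11 and HTR4 among them) were chosen for their known role, some after their values were seen. POSTN, VIM, P2RY1 and LPAR1 were named for their values, as genes that stood higher in BFGF. The alternatives were DESeq2 1.42.0, other size factors, other filters and fold limits, 2-group fits, a replicate block and leaving out each library.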

Additional observations from a re-analysis of the deposited data

How the results depend on the processing

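The calls of EDNRB, BDKRB2, AGTR1, HTR2A and EDN1 were made in both comparisons of BFGF in all 16 alternatives at the fold limit of 0.5, and all 9 genes stayed expressed at limits of 0.5 and 2 CPM. Counts of calls moved most with the fold limit. Without it, the genes called were 2 of the 9 in OIM against NC and 8 in BFGF against NC, 28 pathway genes in OIM against NC, and 1853, 9203 and 9590 of all genes in OIM against NC, BFGF against OIM and BFGF against NC. At a limit of 1 they were 3 of the 9 in BFGF against NC, 2, 41 and 45 pathway genes and 91, 2461 and 2756 of all genes in the same order of comparisons. With library totals alone, all genes moved by a median of 0.22 in BFGF against OIM and 68.8% of calls were higher (68.1% against NC), against 49.0% in the fit described, and BDKRB1 in BFGF against NC turned to 0.090 (adjusted p = 0.168). Leaving out each library in turn gave log2 fold changes of -0.16 to 0.0045 for HTR2A, -0.066 to 0.14 for HTR2B and -0.074 to 0.047 for BDKRB2 in OIM against NC, and of -0.049 to 0.13 for EDNRA and -0.0027 to 0.22 for HTR2B in BFGF against OIM, none of which was called, and the cause was not tested. Same-numbered libraries did not deviate together (correlations of -0.032 to 0.0035). These values show no shared effect of the replicate number, but they cannot exclude a small one or a shared origin. With the replicate block 0, 5 and 5 of the 9 genes were called in OIM against NC, BFGF against OIM and BFGF against NC, as without it. The lowest counts were 153 to 186 per library for AGTR1 in BFGF and 162 to 259 for HTR2B, where counting error at the mean count of a group is up to 7.66% and 7.17% of the level.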
